A study of Homo sapiens with 4 samples.

Results

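SUIT2 cells exposed to the drug fb-PMT were compared with control cells for 38 genes of lipid synthesis, 22 of cholesterol synthesis and 16 of fatty acid synthesis. The genes were listed by pathway, with earlier results of these data known, and were found on the array by the gene symbol in its annotation. Of the 38 genes, 35 had a transcript cluster, which is a probe set that summarises 1 locus, among 21448 transcript clusters in all. They were 21 genes of cholesterol synthesis and 14 of fatty acid synthesis. FDFT1, ELOVL1 and FADS1 had no transcript cluster by name, so their expression was not analysed here.

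Whole-transcript arrays measured total RNA from 2 control samples and from 2 samples treated with fb-PMT at 30 µM, all after 24 h. The control samples are titled untreated and received phosphate-buffered saline. No genetic change is stated for either group, and all 4 samples come from the single line SUIT2. The line is generally described as a ductal adenocarcinoma of the pancreas, while the labels name a glioblastoma. Of 8 markers of ductal epithelium, 7 lay above the array's negative controls on all 4 arrays, whereas all 7 measured glial markers (GFAP and OLIG2 among them) lay below them. fb-PMT is a thyroid hormone analog joined to polyethylene glycol and made to bind the hormone's receptor site on integrin αvβ3. The series asks how it alters the expression of genes that cancer cell mitochondria depend on. The labels do not say whether replicates were separate cultures, so the error behind each p-value is that between these 4 samples and may be technical.

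Values are log2 levels from the deposited table. A level under the 95th percentile of 612 negative control probe sets (7.15 to 7.38, depending on the array) is called below the negative controls. Replicate arrays correlated with r = 0.995 to 0.996 and arrays of different groups with 0.992 to 0.994 across transcript clusters, which are not independent replicates. Summed over the ductal markers, the log2 level was 17.85 and 17.83 in controls against 17.65 and 17.69 with fb-PMT. KRT7 was lower by a log2 difference of -0.95 and ELF3 higher by 0.83, and no ductal marker passed (adjusted p = 0.192 and 0.246 for these genes, limma). With an intensity trend in the variance 5 of the 8 passed. KRT7 (adjusted p = 0.00233, limma), KRT18 (-0.46, 0.0216) and KRT8 (-0.29, 0.0463) were then lower, and ELF3 (0.0121) and EPCAM (0.35, 0.0371) higher. The part of this shift in the lipid results was not tested. On every array, 4 of 5 measured fibroblast markers and 3 of 4 leukocyte markers lay under the negative controls, the exceptions being COL1A2 and LYZ.

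Cells make cholesterol from acetyl-CoA by way of mevalonate, farnesyl diphosphate, squalene and lanosterol, and they make fatty acids by carboxylating acetyl-CoA to malonyl-CoA, building palmitate, and then elongating and desaturating it. Both routes are driven by SREBP transcription factors, of which SREBF2 mainly serves the cholesterol genes and SREBF1 mainly the fatty acid genes. SCAP carries the SREBP precursors from the endoplasmic reticulum to the Golgi, where proteases release the active part, and INSIG proteins hold SCAP back when sterols are plentiful. Epithelial tumours often rely on this pathway to supply membrane lipids.

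Promoter windows are shown for the 4 members whose unadjusted limma p was under 0.05 (SREBF2, HSD17B7, ELOVL6 and FDPS) and for LSS, the member with the lowest log2 difference. Each window comes from RefSeq on GRCh38.p14 and holds 300 bases, from 250 before the annotated gene start, and is read 5′ to 3′ along the gene. The windows lie at chr22:41832855-41833154 (plus strand, SREBF2), chr1:162790452-162790751 (plus, HSD17B7), chr4:110198566-110198865 (minus, ELOVL6), chr1:155308616-155308915 (plus, FDPS) and chr21:46228725-46229024 (minus, LSS). Capitals mark the sterol regulatory element searched as TCACNCCAC and the CCAAT box, which reads ATTGG on the opposite strand.
SREBF2: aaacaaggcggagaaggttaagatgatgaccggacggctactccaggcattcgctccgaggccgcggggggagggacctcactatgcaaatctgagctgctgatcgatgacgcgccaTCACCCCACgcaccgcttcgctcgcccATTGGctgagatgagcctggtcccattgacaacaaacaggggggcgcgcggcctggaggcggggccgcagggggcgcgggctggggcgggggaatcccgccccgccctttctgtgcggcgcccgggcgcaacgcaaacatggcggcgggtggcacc
HSD17B7: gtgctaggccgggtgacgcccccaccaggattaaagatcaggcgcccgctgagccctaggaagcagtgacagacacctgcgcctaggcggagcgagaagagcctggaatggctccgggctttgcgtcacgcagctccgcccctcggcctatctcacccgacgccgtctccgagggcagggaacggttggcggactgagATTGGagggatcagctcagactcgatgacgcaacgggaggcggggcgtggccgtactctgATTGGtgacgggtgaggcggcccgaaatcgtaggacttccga
ELOVL6: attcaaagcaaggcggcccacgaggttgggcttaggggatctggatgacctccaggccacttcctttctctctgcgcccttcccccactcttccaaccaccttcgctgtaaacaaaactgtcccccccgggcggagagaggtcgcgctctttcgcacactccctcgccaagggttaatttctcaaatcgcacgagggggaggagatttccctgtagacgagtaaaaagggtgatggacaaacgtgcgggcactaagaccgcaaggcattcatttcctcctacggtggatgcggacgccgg
FDPS: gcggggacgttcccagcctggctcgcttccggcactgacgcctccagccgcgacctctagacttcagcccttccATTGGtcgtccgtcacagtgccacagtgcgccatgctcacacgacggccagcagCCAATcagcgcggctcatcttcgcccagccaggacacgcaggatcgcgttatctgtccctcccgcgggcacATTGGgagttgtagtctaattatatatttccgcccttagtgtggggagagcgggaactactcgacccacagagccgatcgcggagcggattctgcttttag
LSS: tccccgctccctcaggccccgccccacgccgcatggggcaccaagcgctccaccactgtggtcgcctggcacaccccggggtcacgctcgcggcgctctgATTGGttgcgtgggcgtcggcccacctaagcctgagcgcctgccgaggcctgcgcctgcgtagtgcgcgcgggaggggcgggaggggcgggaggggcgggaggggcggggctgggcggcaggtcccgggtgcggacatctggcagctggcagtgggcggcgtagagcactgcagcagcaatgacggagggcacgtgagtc
Of the 5 windows, only that of SREBF2 held the letters TCACNCCAC, starting 133 bases before the gene start. A CCAAT box started 106 bases before it. Other forms of the sterol regulatory element were not searched, so the other windows are not shown to lack one. FDPS had 3 CCAAT boxes, HSD17B7 had 2, LSS had 1, and ELOVL6 had none.

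The RefSeq windows used here cover 34 of the 38 genes, ELOVL1 and FADS1 included, with 47 windows in all because some genes have several starts. SQLE, FDFT1, FASN and ACAT2 were not in this search. Both strands were searched. The TCACNCCAC element stood in 1 of the 47 (2.13%), against 1.13% of all 35116 windows. CCAAT boxes stood in 28 (59.6%), against 34.6% of all windows, and by gene in 15 of 19 cholesterol genes and 9 of 15 fatty acid genes. The GC box GGGCGG was in 41 windows (87.2%), against 45% of all windows and 56.3% of those of protein-coding genes. The E-box CACGTG, which reads the same on both strands, was in 6 (12.8%), against 7.26% of all. Matches are a description of these letters, and these windows are short.

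With fb-PMT, no gene of either pathway passed limma's test. In all 35 members, 0 were called higher and 0 lower at an adjusted p under 0.05, where 0.0979% of all transcript clusters were called higher and 0% lower. The members' adjusted p-values ran from 0.36 to 0.966. At an unadjusted p under 0.05 there were 4 of 35 (11.4%), against 11.2% of all transcript clusters, so this share was near the background. All 4 were higher, where 5.7% of all transcript clusters were higher and 5.49% lower at that p. These 4 genes lay above the negative controls on all 4 arrays. Of the 8696 transcript clusters that did, 605 were higher and 347 lower at that p. With an intensity trend in the variance, the setting that called most transcript clusters (1.37% higher and 0.513% lower), still 0 members passed, and the smallest adjusted p was that of FDPS at 0.0578.

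The intervals show how large a difference the arrays leave room for. In 34 of the 35 members the 95% interval of the difference, not adjusted for the number of genes, lay between a 2-fold decrease and a 2-fold increase, with ACACB as the exception. For 18 members it lay within 1.5-fold either way. Of all 21448 transcript clusters, 18699 lay within 2-fold and 8264 within 1.5-fold. Of the 8696 above the negative controls on all 4 arrays, 8217 and 4622 did. The 34 members include ELOVL7 and MLXIPL, which lay below the negative controls on all 4 arrays. For the members, the median distance from the estimate to either end of the interval was 0.41 on the log2 scale.

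**Figure D1:**
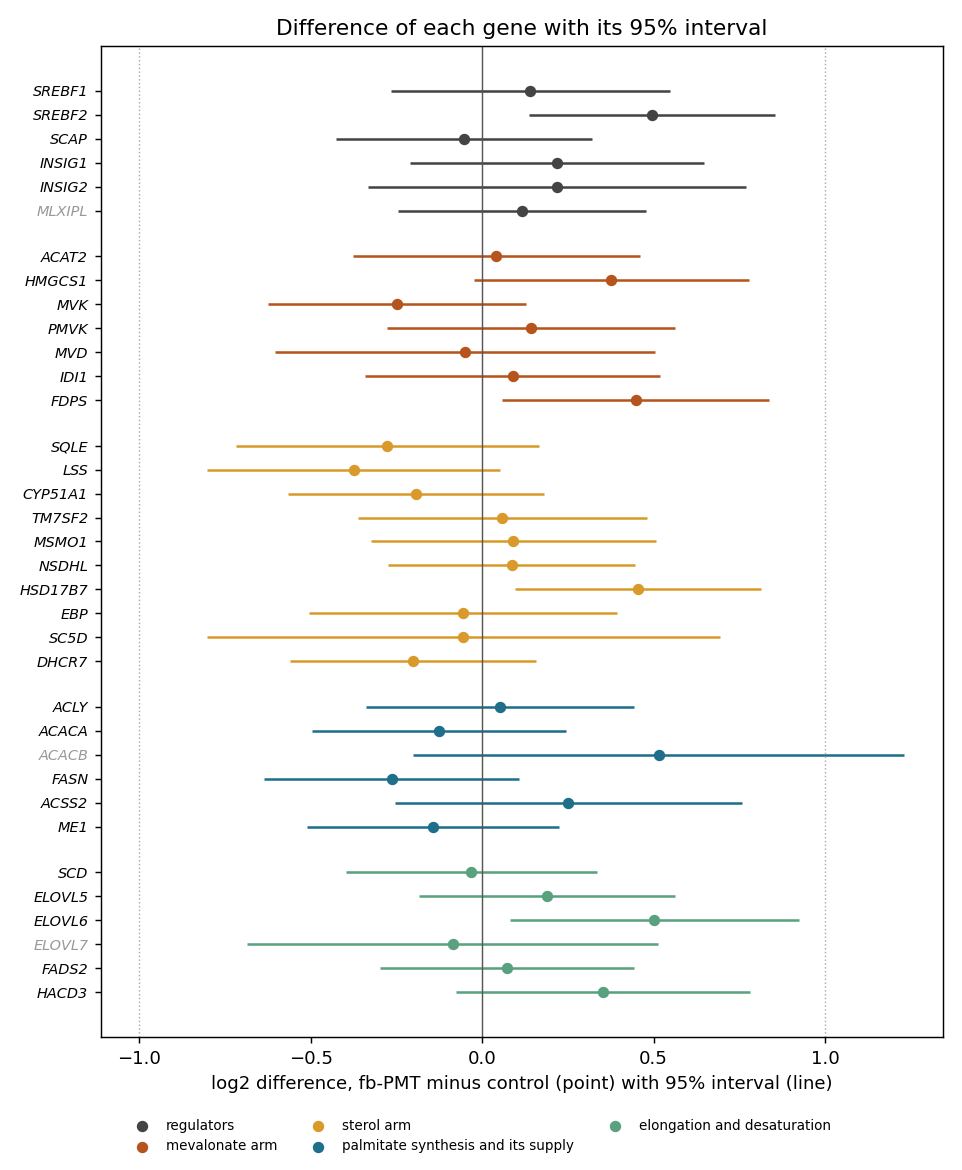
Log2 difference of each measured gene, fb-PMT minus control (horizontal axis, points), with its 95% interval from limma (lines), n = 2 arrays per group. Genes are in rows by role and pathway order, dotted lines mark 2-fold changes, and names in grey are below the negative controls on all 4 arrays. Of the 35 intervals, 4 lie wholly above 0 (SREBF2, HSD17B7, ELOVL6 and FDPS) and none lies wholly below 0.

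Among the 6 regulators, 5 were higher in the mean and SCAP was lower, and the median log2 difference was 0.18. Of all transcript clusters 47.3% were higher in the mean, as were 51.1% of those above the negative controls on all 4 arrays. SREBF2, the transcription factor of the cholesterol genes, read 10.28 and 10.23 in controls against 10.76 and 10.74 with fb-PMT. Both fb-PMT arrays stood above both control arrays, and replicates lay close to each other. The difference was 0.49 (SE 0.14), or 1.41-fold with a 95% interval of 1.1-fold to 1.81-fold, and it missed the threshold (adjusted p = 0.36). Leaving out any 1 array gave 0.47 to 0.52.

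SREBF1, which encodes the factor of the fatty acid genes, read 11.98 and 12.22 in control samples and 12.30 and 12.18 with the drug. The groups overlapped, since control replicate 2 lay above fb-PMT replicate 2. Its difference was 0.14 (SE 0.16, adjusted p = 0.796), and the 95% interval ran from -0.27 to 0.55.

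SCAP, the escort of both precursors, read 10.38 and 10.22 on the control arrays against 10.23 and 10.26 on the fb-PMT arrays. Both fb-PMT values lay between the control values, with a difference of -0.05 (SE 0.15). INSIG1, an anchor of SCAP and itself a well-known SREBP target, read 9.88 and 9.58 without the drug and 10.02 and 9.88 with it. The groups barely separated, and the difference was 0.22 (SE 0.17, adjusted p = 0.681, and 0.07 to 0.36 with any 1 array omitted). INSIG2, the related anchor, read 9.88 and 9.31 in controls and 9.85 and 9.78 after treatment. Its control arrays lay further apart than the group means, so that the difference of 0.22 (SE 0.22) turned to -0.07 without control replicate 2.

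MLXIPL, the carbohydrate-responsive factor known as ChREBP, was below the negative controls on all 4 arrays, at 4.91 and 4.98 in controls and 5.04 and 5.08 with fb-PMT, and no fold is given. MLX, its dimer partner, differed by -0.27 (SE 0.15, adjusted p = 0.562), and its relative MLXIP was also below the negative controls.

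**Figure D2:**
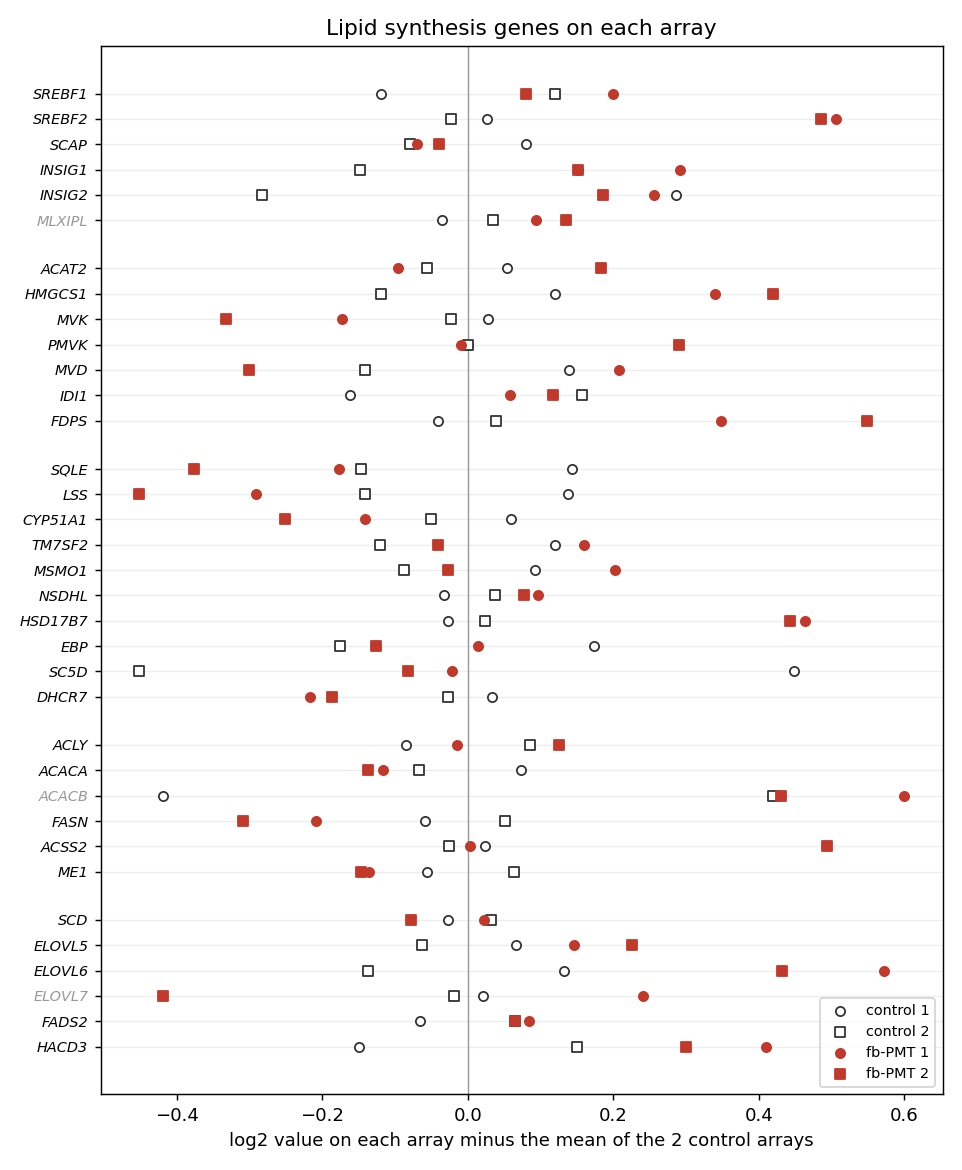
Log2 value of each measured gene on each of the 4 arrays, minus the mean of the 2 control arrays (horizontal axis). Open symbols are control and filled symbols fb-PMT, circles are replicate 1 and squares replicate 2, and names in grey are below the negative controls on all arrays. SREBF2, HSD17B7 and FDPS show filled symbols clear of the open ones on the right, LSS shows them on the left, and the open symbols of SC5D span the widest gap.

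In the mevalonate arm, which leads from acetyl-CoA to farnesyl diphosphate, 5 of 7 genes were higher in the mean and 2 lower, with a median of 0.09. FDPS, the synthase that makes farnesyl diphosphate for sterols and isoprenoids, read 12.76 and 12.84 in controls against 13.15 and 13.35 with fb-PMT. The fb-PMT values were both above the control values, by more than the gap within either group. The difference was 0.45 (SE 0.16), 1.36-fold, with an adjusted p of 0.403 and 0.35 to 0.55 with any 1 array omitted. RefSeq lists 10 genes named as FDPS pseudogenes, 1 of them transcribed, and whether the probes read them is not given in the sources used here.

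HMGCS1, which condenses acetoacetyl-CoA and acetyl-CoA to HMG-CoA, read 9.16 and 8.92 in controls and 9.38 and 9.46 with fb-PMT. The groups did not overlap, and the difference of 0.38 (SE 0.16) did not pass (adjusted p = 0.469). MVK, the mevalonate kinase, had the lowest difference of this arm, with 7.48 and 7.43 in controls against 7.28 and 7.12. Its values were close to the negative controls, and fb-PMT replicate 2 lay below them. The difference was -0.25 (SE 0.15, adjusted p = 0.59).

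The remaining mevalonate genes had overlapping groups. They were ACAT2, which makes acetoacetyl-CoA (difference 0.04), the kinase gene PMVK (0.14), the decarboxylase gene MVD (-0.05) and the isomerase gene IDI1 (0.09). MVD read 7.57 and 7.29 in controls and 7.64 and 7.13 with fb-PMT, which put fb-PMT replicate 2 below the negative controls.

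The sterol arm, from squalene to cholesterol, had 4 of 10 measured genes higher in the mean and 6 lower, with a median of -0.05. HSD17B7, the reductase that acts on the ketone left by sterol demethylation, read 8.82 and 8.87 in controls against 9.31 and 9.29 with fb-PMT. Replicates agreed closely and the groups stood apart. The difference was 0.45 (SE 0.14), 1.37-fold, with an adjusted p of 0.378, and it kept between 0.43 and 0.48 with any 1 array omitted. RefSeq names 2 pseudogenes of HSD17B7, 1 of them transcribed, so this value is uncertain in the same way as that of FDPS.

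LSS, the synthase that folds squalene epoxide into lanosterol, read 10.24 and 9.96 in controls and 9.81 and 9.65 with the drug. Both fb-PMT arrays lay below both control arrays. Its difference of -0.37 (SE 0.17) was the lowest of all members and did not pass (adjusted p = 0.5), with values of -0.51 to -0.23 when 1 array was left out.

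The neighbours of LSS in the pathway had differences of the same sign. SQLE, the squalene epoxidase that precedes it, differed by -0.28 (SE 0.18, adjusted p = 0.61), and CYP51A1, the lanosterol demethylase that follows it, by -0.19 (SE 0.15, adjusted p = 0.675). SQLE read 10.58 and 10.29 in controls and 10.26 and 10.06 with fb-PMT, and its difference was -0.13 without control replicate 1 and -0.42 without control replicate 2. DHCR7, the reductase of a late step to cholesterol, differed by -0.20 (SE 0.15). In these 4 of the 10 measured sterol genes both fb-PMT arrays lay below both control arrays, and none passed. Among all transcript clusters 22.3% did, and 23.1% of those above the negative controls on all 4 arrays. In 2 of the 10, HSD17B7 and NSDHL, both lay above, against 20.2% and 26.4%. The 4 genes were grouped after their values were seen, so their shared direction follows from that choice.

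Of the other sterol genes, TM7SF2, MSMO1 and NSDHL, which reduce or demethylate lanosterol derivatives, had differences of 0.06, 0.09 and 0.09. The isomerase gene EBP was at -0.06 and the desaturase gene SC5D at -0.05. SC5D had the widest gap between replicates of any member, with 10.18 and 9.28 on the control arrays around 9.71 and 9.65 on the fb-PMT arrays. Its difference therefore ran from -0.50 to 0.39 when 1 array was left out.

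Across all 21 measured cholesterol genes, 12 were higher in the mean and 9 lower, the median difference was 0.06, and the 4 pairings of an fb-PMT with a control array gave medians of -0.11 to 0.19. Among all transcript clusters 47.3% were higher, and the median was -0.02. Among those above the negative controls on all 4 arrays 51.1% were higher, and the median was 0.006. The sign of the cholesterol median changed to -0.06 without control replicate 2 and to -0.03 without fb-PMT replicate 1.

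Palmitate synthesis and its supply of acetyl-CoA and NADPH showed 3 genes higher and 3 lower, with a median of -0.04. FASN, the multi-enzyme protein that builds palmitate, read 11.40 and 11.51 in controls and 11.25 and 11.15 with fb-PMT. The fb-PMT arrays lay below the control arrays, and the difference of -0.26 (SE 0.15) did not pass (adjusted p = 0.57). ACACA, the cytosolic acetyl-CoA carboxylase that commits carbon to fatty acids, read 11.37 and 11.23 against 11.18 and 11.16. Its groups did not overlap either, with a difference of -0.13 (SE 0.15). ME1, the malic enzyme that yields NADPH, was at -0.14 (SE 0.15), again with both fb-PMT arrays below both control arrays. Among all transcript clusters 22.3% lay so, and 23.1% of those above the negative controls on all 4 arrays. In 1 of the 6 genes, ACACB, both lay above, against 20.2% and 26.4%. ACACA and ME1 were set beside FASN after their values were seen.

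ACLY, which cleaves citrate to acetyl-CoA, differed by 0.05 (SE 0.16) with overlapping groups. ACSS2, which makes acetyl-CoA from acetate, read 7.75 and 7.70 in controls and 7.73 and 8.22 with the drug. Only fb-PMT replicate 2 stood above the control arrays, and without it the difference of 0.25 became 0.01. ACACB, the carboxylase gene of the mitochondrial surface, was below the negative controls on all 4 arrays, at 4.61 and 5.45 in controls and 5.63 and 5.46 with fb-PMT. Its measured difference of 0.51 (SE 0.29, adjusted p = 0.564) thus comes with no fold, and it was 0.10 without control replicate 1 and 0.93 without control replicate 2.

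In elongation and desaturation, 4 of 6 measured genes were higher in the mean, with a median of 0.13. ELOVL6, the elongase that takes palmitate to stearate, read 10.64 and 10.37 in controls against 11.08 and 10.94 with fb-PMT. Both fb-PMT arrays were above both control arrays. The difference was 0.50 (SE 0.17), 1.42-fold with a 95% interval of 1.06-fold to 1.9-fold, and it missed the threshold (adjusted p = 0.392, and 0.36 to 0.64 with any 1 array omitted).

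HACD3, a dehydratase of the elongation cycle, read 12.85 and 13.15 in controls and 13.41 and 13.30 after treatment, without overlap. It differed by 0.35 (SE 0.17, adjusted p = 0.52), by 0.20 without control replicate 1 and by 0.51 without control replicate 2. ELOVL5, the elongase of polyunsaturated fatty acids, differed by 0.19 (SE 0.15) with its groups apart. In 3 of the 6 genes both fb-PMT arrays lay above both control arrays, and in 0 both lay below. Among all transcript clusters 20.2% lay above and 22.3% below. Of those above the negative controls on all 4 arrays, 26.4% and 23.1% did. FADS2, a desaturase of polyunsaturated fatty acids, differed by 0.07 and the stearoyl-CoA desaturase gene SCD by -0.03, both with overlapping groups. SCD read 13.85 and 13.91 in controls and 13.90 and 13.80 with fb-PMT. ELOVL7 was below the negative controls on all 4 arrays, at 4.65 and 4.61 in controls and 4.87 and 4.21 with fb-PMT, and has no fold.

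Across all 14 measured fatty acid genes, 9 were higher in the mean and 5 lower. The median difference was 0.09, or 0.07 once the 3 genes below the negative controls were left out, and the array pairs gave medians of 0.005 to 0.17. It was 0.01 without control replicate 1 and 0.14 without control replicate 2.

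**Figure D3:**
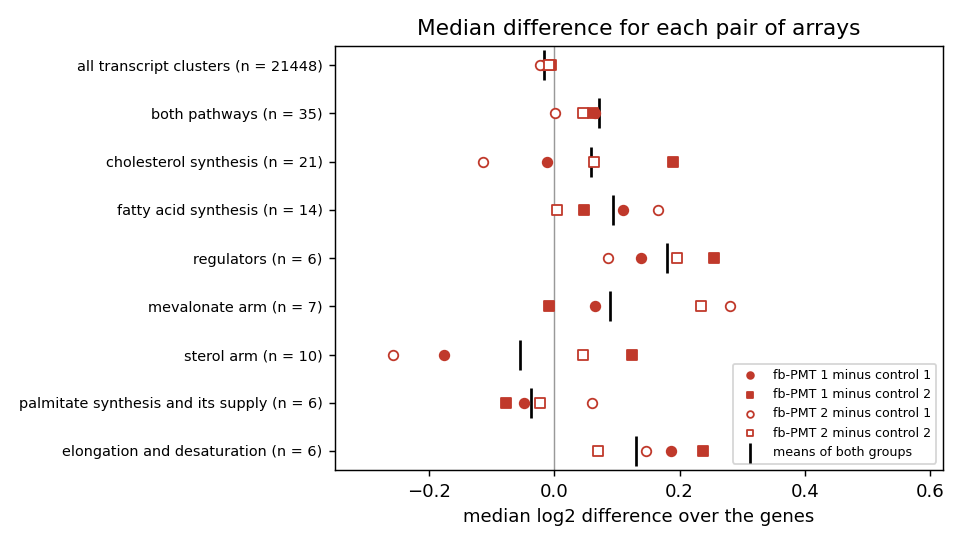
Median log2 difference over the genes of each group (horizontal axis) for each of the 4 pairs of an fb-PMT and a control array (circles and squares), with the median of the differences between group means as a black bar. The number of genes stands beside each group. The pairs of the sterol arm fall on both sides of 0, between -0.26 and 0.12, while those of the regulators lie between 0.09 and 0.26.

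Over both pathways together, 21 of 35 genes were higher in the mean and 14 lower, with a median difference of 0.07. Over all transcript clusters 47.3% were higher and the median was -0.02. Over the 8696 that lay above the negative controls on all 4 arrays, as 30 of the members did, these values were 51.1% and 0.006. The members' median absolute difference was 0.14, against 0.18 over all transcript clusters and 0.15 over those 8696. In 11 members (31.4%) both fb-PMT arrays lay above both control arrays, where 20.2% of all transcript clusters did, and 26.4% of those above the negative controls. In 8 members (22.9%) both lay below, against 22.3% and 23.1%. The downward share was near the background. The 11 include ACACB and MLXIPL, which lay below the negative controls on all 4 arrays. They also include INSIG1, whose closest pair of arrays differed by only 0.0005. These counts were not tested. By size, 3 members (SREBF2, ELOVL6 and ACACB) lay above the 95th percentile of all differences, 0.48, and none lay below the 5th, -0.49. Of these, ACACB was below the negative controls on all 4 arrays, and its difference was 0.10 without control replicate 1.

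**Figure D4:**
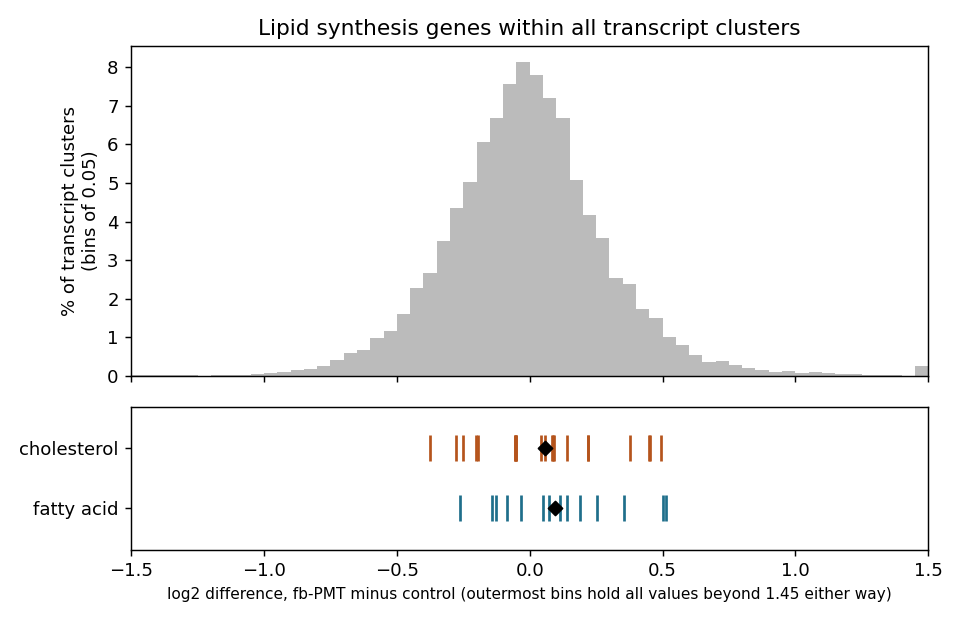
Top, share of all 21448 transcript clusters (vertical axis, percent) by log2 difference, fb-PMT minus control (horizontal axis, bins of 0.05, the outermost holding all values beyond). Bottom, the measured cholesterol and fatty acid genes as ticks, with each pathway's median as a black diamond at 0.06 and 0.09. The members lie between -0.37 and 0.51, where the 5th and 95th percentiles of all differences are -0.49 and 0.48.

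Genes next to these pathways were taken from 4 further lists. Beside their counts, 47.3% of all transcript clusters were higher in the mean, and 51.1% of those above the negative controls on all 4 arrays. The counts of the lists were not tested. In sterol sensing, transport and storage, 14 of 18 measured genes were higher in the mean and 4 lower, with a median of 0.11, and 0 passed. SOAT1, which esterifies cholesterol for storage, read 11.46 and 11.34 in controls and 11.79 and 11.88 with fb-PMT. Its groups stood apart, with a difference of 0.44 (SE 0.15, adjusted p = 0.396). LIPA, the lysosomal lipase that frees cholesterol from its esters, read 10.39 and 10.26 against 10.67 and 10.75, also apart. It differed by 0.38 (SE 0.15, adjusted p = 0.445).

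In the isoprenoid branches of the mevalonate pathway, 8 of 14 measured genes were higher and 6 lower, with a median of 0.04 and 0 past the threshold. COQ2, the transferase that joins the ubiquinone ring to its isoprenoid tail, read 12.12 and 11.96 in controls and 12.53 and 12.50 with the drug. The difference was 0.47 (SE 0.15, adjusted p = 0.378, and 0.0537 with an intensity trend). PDSS1, a subunit of the synthase of that tail, read 10.65 and 10.37 against 9.99 and 10.33 and so differed the other way, by -0.35 (SE 0.19, adjusted p = 0.56).

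Among other enzymes of fatty acid supply, activation and synthesis, 15 of 26 measured genes were higher and 11 lower, with a median of 0.03, and 0 passed. OXSM, the ketoacyl synthase of the mitochondrial fatty acid pathway, read 8.90 and 8.83 in controls against 9.52 and 9.63 with fb-PMT. The groups stood far apart for their spread, and the difference was 0.71 (SE 0.15), 1.64-fold, with an adjusted p of 0.247. OXSM passed with an intensity trend (adjusted p = 0.0421), the 1 gene of the 4 lists and the members that did, and with the filter on negative controls (0.0314). FADS3, a relative of FADS2, was lower with 8.85 and 9.07 in controls and 8.42 and 8.49 with fb-PMT. It differed by -0.51 (SE 0.16, adjusted p = 0.378).

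NADPH supply, which feeds reductive steps of both pathways, had 8 of 11 measured genes higher and 3 lower, with a median of 0.05 and 0 past the threshold. PGLS, the lactonase of the pentose phosphate pathway, read 7.65 and 8.08 in controls and 8.40 and 8.57 with fb-PMT. It differed by 0.62 (SE 0.20, adjusted p = 0.378). Both fb-PMT arrays stood above both control arrays. NNT, the transhydrogenase of the inner mitochondrial membrane, read 10.70 and 10.96 against 11.13 and 11.20. It differed by 0.33 (SE 0.16, adjusted p = 0.523), with its groups apart.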

How the data were processed

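The log2 probe set values were deposited by the authors after RMA (background correction, normalization between arrays, summary of probes). The submitters' processing notes name Transcriptome Analysis Console 4.0.1.36 beside it. The sources used here do not give the RMA variant, the array's genome build or the handling of probes shared with pseudogenes. RMA shrinks differences of dim genes, and its normalization removes a shift shared by most genes. Of 24351 probe sets, 2903 controls were left out and 21448 tested. The platform annotation named 17709. All 35 measured members matched RefSeq by Entrez identifier and symbol.

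A model of fb-PMT minus control was fitted to the log2 values by lmFit and eBayes of limma 3.58.1 (R 4.3.3), without trend or covariate, with 2 residual and 3.72 prior degrees of freedom. Tests are two-sided, with Benjamini-Hochberg adjustment over all 21448 at 0.05. An exact permutation test of 2 against 2 arrays cannot go below 0.333. The number of arrays limits the precision, with a median SE of 0.175. Members, lists and the rule for naming genes were chosen with earlier results of these data known. Values per array are given for the regulators, for the highest and lowest member of each role, for members with an unadjusted p under 0.05, and for the 2 genes of each further list with the largest difference above the negative controls; others were named after their values were seen. Alternatives were an intensity trend (also with robust variances), a filter on negative controls, testing named genes only, array weights, a replicate block, medians set equal, quantile normalization run again, and leaving out each array.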

Additional observations from a re-analysis of the deposited data

How the results depend on the processing

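No member passed the threshold in any of the 12 alternatives that tested it, and the smallest adjusted p was 0.0578. The filter on negative controls leaves out ACACB, ELOVL7 and MLXIPL, and the other alternatives tested all 35. With all 4 arrays kept, no member turned its sign in the 8 alternatives that tested it. Leaving out 1 array turned the sign of 13 members, whose differences then ran over these ranges: ACAT2 (-0.10 to 0.18), ACLY (-0.034 to 0.14), EBP (-0.23 to 0.12), ELOVL7 (-0.41 to 0.24), IDI1 (-0.072 to 0.25), INSIG2 (-0.068 to 0.50), MSMO1 (-0.025 to 0.21), MVD (-0.30 to 0.20), PMVK (-0.010 to 0.29), SC5D (-0.50 to 0.39), SCAP (-0.13 to 0.024), SCD (-0.080 to 0.018) and TM7SF2 (-0.059 to 0.18). The other 22 kept their sign. Among these, leaving out 1 array also moved SREBF1 (0.019 to 0.26), ACACA (-0.20 to -0.055), ME1 (-0.20 to -0.083), ELOVL5 (0.12 to 0.25), FADS2 (0.0037 to 0.14) and NSDHL (0.053 to 0.12). Each moved by a factor of over 1.5 from its value with all 4 arrays, each end without 1 of the control arrays. By that measure HMGCS1 (0.26 to 0.50), CYP51A1 (-0.25 to -0.14), FASN (-0.32 to -0.21), MVK (-0.33 to -0.17), MLXIPL (0.080 to 0.15) and DHCR7 (-0.23 to -0.17) moved by less. Checked after seeing the data, PRKAA1 turned to -0.025 after renewed quantile normalization and ran from -0.048 to 0.059 when 1 array was left out.

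The median of both pathways was 0.032 after renewed quantile normalization, and 0.0017 to 0.088 when 1 array was left out, the lowest without control replicate 2. Leaving out 1 array put the cholesterol median at -0.059 to 0.12 and the fatty acid median at 0.011 to 0.14. Over all transcript clusters, the 21 called higher and 0 lower became 293 and 110 with an intensity trend, 286 and 108 with robust variances added, 216 and 73 with the filter on negative controls, and 42 and 2 among named genes only, where fewer genes are tested. Leaving out 1 array left 1 to 9 higher. At an unadjusted p under 0.05, limma had 1177 lower. The cause of these shifts was not tested. With the replicate number as a block 1 transcript cluster was called higher and 0 members. The deviations of same-numbered arrays correlated with r = 0.042 across transcript clusters, which are not independent. The labels do not say what same-numbered samples share, and this correlation cannot settle it. Dim genes carry the least information: 3 members lay below the negative controls on all arrays.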

Other observations

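The sterol exporter genes ABCA1 and ABCG1 had the largest differences, in opposite directions, of the sterol transport list, and both lay below the negative controls on all 4 arrays, so no fold is given. They are named after their values were seen. ABCA1 read 5.23 and 5.75 in controls and 6.08 and 6.05 with fb-PMT, a difference of 0.58 (SE 0.21, adjusted p = 0.416, limma). ABCG1 read 7.30 and 7.04 in controls and 6.51 and 6.30 with fb-PMT, a difference of -0.77 (SE 0.18, adjusted p = 0.266, limma). In neither gene did the groups overlap, and neither passed.

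Of the kinase AMPK, which phosphorylates the acetyl-CoA carboxylases, neither catalytic subunit gene passed. PRKAA2 read 9.10 and 9.17 in controls and 8.75 on both fb-PMT arrays, a difference of -0.38 (SE 0.15, adjusted p = 0.431, limma). PRKAA1 was at 0.01 (SE 0.15, adjusted p = 0.992, limma), and its sign turned in some alternatives. Whether these 2 differences are unequal was not tested.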
